A study of Gallus gallus with 15 samples.

Results

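The germinal disc of the hen's largest (F1) preovulatory follicle was compared between birds injected with corticosterone and birds injected with the peanut oil vehicle. The comparison used 10 of the 15 RNA sequencing libraries of the series, chosen by their labels, namely corticosterone replicates 1 to 5 and control replicates 1 to 5. The other 5 libraries, from hens given testosterone, were left out of the main fit. All hens were White Leghorn layers. Corticosterone was given as 1.5 mg in 0.5 ml of oil and controls received 0.5 ml of oil alone, 5 h before the ovulation predicted from each hen's laying record. Follicles were taken about 1.5 h later, 3.5 h before ovulation, a time at which the submitters describe the sex chromosomes as segregating. The series asked whether the hormones altered genes that govern this segregation. Each library came from pooled RNA, of 8 discs by the source names and of 9 by the extraction protocol. Spread between libraries is thus spread between pools, and that between single hens was not measured.

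The germinal disc is the small white patch on the yolk surface that holds the oocyte's nucleus and most of its cytoplasm, and granulosa cells lie against it. In the hours before ovulation the oocyte resumes meiosis, and in birds, where the female carries the unlike sex chromosomes, the first division decides which of them the egg keeps. A full-grown oocyte is widely held to rely on stored maternal RNA with little new transcription, whereas granulosa cells remain transcriptionally active. Corticosterone is the main glucocorticoid of birds. It acts through intracellular receptors that bind DNA and raise or lower the transcription of target genes.

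The deposited counts cover 24881 Ensembl chicken gene identifiers, and the reference table used here matched 0 of them to a gene name. Oocyte, granulosa and blood markers, glucocorticoid targets and segregation genes could therefore not be looked up, and the tissue label was not checked against markers. The 10 libraries held between 24550108 and 33795073 counts each, and 20694 genes had a count in at least 1 of them. A gene was tested if it passed a filter on low counts, which left 14062 genes. These held at least 99.93% of the counts of every library. Levels are in CPM, meaning counts relative to a common library total after TMM scaling, which takes most genes as equal between libraries. They are not per length, so the level of a gene is compared between libraries. The abundance classes used below sort genes by CPM and thus mix transcript length with abundance.

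No gene differed between corticosterone and control pools past the threshold of 0.05 on the adjusted p. With edgeR's quasi-likelihood test on the 10 libraries, 0 of 14062 genes (0%) passed and the smallest adjusted p was 0.445. Limma voom, run with a quality weight for each library, also called 0 genes (0%), with a smallest adjusted p of 0.282. DESeq2 called 11 genes (0.113% of the 9700 with an adjusted p from it), of which 10 were lower after corticosterone and 1 was higher. In edgeR these 11 all had an unadjusted p below 0.05, with adjusted values from 0.445 to 0.550. Without corticosterone replicates 1 and 2, edgeR again called 0 of 14225 genes (0%), and the smallest adjusted p was 0.716. In pooled tissue, fewer cells of a type and less RNA per cell cannot be told apart, and this touches every difference below.

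An unadjusted p under 0.05 was found for 1241 genes (8.83%), where p values spread evenly from 0 to 1 would give about 703. Of these, 573 (4.07%) were higher and 668 (4.75%) lower after corticosterone. Genes are not independent of each other, so this excess was not read as a number of responding genes. It moved with single libraries. The 1241 genes became 795 without control replicate 1 and 1898 without corticosterone replicate 5. The 573 higher genes became 337 without control replicate 1, 358 without control replicate 5 and 327 without corticosterone replicate 2, and the 668 lower genes became 1063 without corticosterone replicate 5. Scaling by total count alone turned the split to 1178 higher and 382 lower. The split was 550 upward and 689 downward with RLE factors and 608 against 660 with upper-quartile factors.

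**Figure D1:**
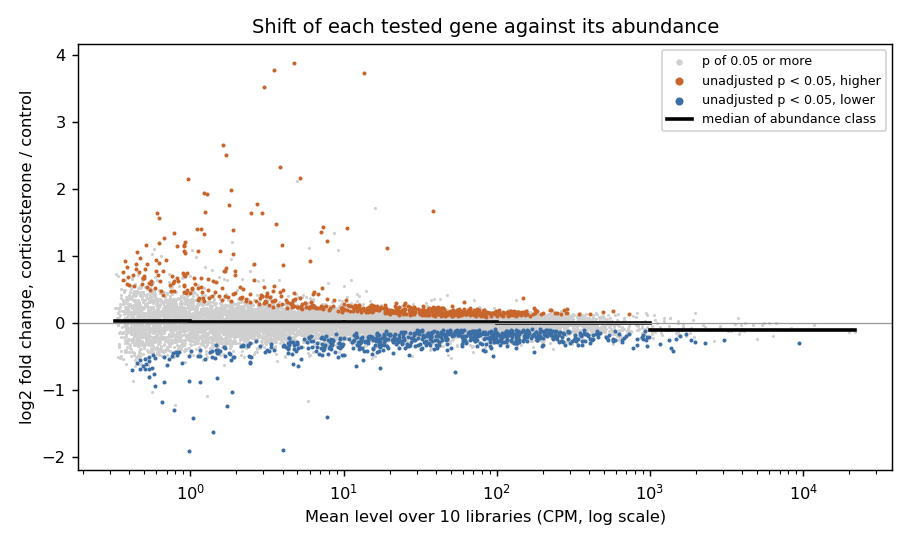
Each point is 1 of the 14062 tested genes, with its mean level over the 10 libraries (CPM, log scale) on the horizontal axis and its fitted log2 fold change on the vertical axis. Orange and blue points have an unadjusted edgeR p under 0.05, and black bars are class medians. Most genes lie close to 0, the fold changes widen below 10 CPM, and the bar over 1000 CPM lies at -0.11.

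Most shifts were small. The median absolute log2 fold change was 0.08 over all tested genes and 0.22 over the 1241 genes with an unadjusted p under 0.05. A fitted fold beyond 1.2 was found for 1357 genes (9.65%), beyond 1.5 for 179 genes (1.27%) and beyond 2 for 67 genes (0.476%). The fold beyond 1.2 was reached by 617 genes upward and 740 downward, and that beyond 1.5 by 135 upward and 44 downward. Abundant genes had no shifts of that size. Among the 2175 genes of 100 CPM or more, 0 had a fitted fold beyond 1.5, against 95 of the 1424 genes under 1 CPM. Between these, 75 of 3850 genes at 1 to 10 CPM and 9 of 6613 genes at 10 to 100 CPM went beyond 1.5-fold.

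How small a shift the pools could have hidden depends on abundance. The 95% interval of the fold change, taken for each gene alone, lay within 1.5-fold either way for 11720 genes (83.3%). That share was 97.7% at 100 to 1000 CPM, 96.8% at 10 to 100 CPM, 77.1% at 1 to 10 CPM and 15.6% under 1 CPM. Within 1.2-fold it lay for 6296 genes (44.8%), 73.5% of those at 100 to 1000 CPM and 0% of those under 1 CPM. For 5 genes the whole interval was past 1.5-fold, and for 0 genes was it past 2-fold. A change of 1.5-fold or more was thus outside the interval for nearly all genes above 10 CPM, and inside it for most genes under 1 CPM.

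The identifiers with the smallest unadjusted edgeR p in each direction, at a mean of at least 1 CPM, are given library by library as examples. ENSGALG00000009480 was at 36.9, 39.9, 35.1, 33.2 and 38.3 CPM in control replicates 1 to 5. It was at 27.3, 26.9, 28.2, 28.7 and 30.6 CPM in corticosterone replicates 1 to 5. All corticosterone pools lay below all control pools, and replicates 1 and 2 were the lowest of them. The means were 28.3 ± 1.44 and 36.7 ± 2.62 CPM (SD, n = 5). On the log2 scale the fold change was -0.37 with an SE of 0.060, and the edgeR adjusted p was 0.445. DESeq2 gave this gene an adjusted p of 0.000409 and limma voom 0.282. The log2 fold change was -0.34 without corticosterone replicates 1 and 2.

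ENSGALG00000003733 was at 72.6, 70.0, 65.1, 62.6 and 75.4 CPM in controls and at 55.6, 55.3, 58.7, 57.7 and 52.3 CPM after corticosterone, in replicate order. The highest corticosterone pool lay 3.85 CPM below the lowest control pool. The edgeR adjusted p was 0.550 at a log2 fold change of -0.31 (SE 0.058), which was -0.30 without corticosterone replicates 1 and 2. DESeq2 gave an adjusted p of 0.00758.

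ENSGALG00000026449 was at 28.4, 27.6, 27.8, 27.0 and 25.9 CPM in controls and at 33.8, 31.2, 31.6, 31.1 and 30.5 CPM after corticosterone. The groups did not overlap, and the corticosterone mean of 31.6 ± 1.30 CPM was 116% of the control mean of 27.3 ± 0.949 CPM (SD, n = 5). With a log2 fold change of 0.21 (SE 0.050), the adjusted p was 0.550 by edgeR and 0.0948 by DESeq2. ENSGALG00000042845 was a scarce transcript, with 22 to 58 reads per library. It was at 1.05, 0.966, 0.974, 0.884 and 1.19 CPM in controls and at 1.36, 1.80, 1.77, 1.69 and 1.29 CPM after corticosterone. Here too every corticosterone pool was above every control pool, with corticosterone replicates 1 and 5 nearest to the controls. The log2 fold change of 0.65 had an SE of 0.15 (edgeR adjusted p = 0.550) and was again 0.65 without corticosterone replicates 1 and 2. The 4 genes were picked for their p in this contrast, so the absence of overlap is a description of them.

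**Figure D2:**
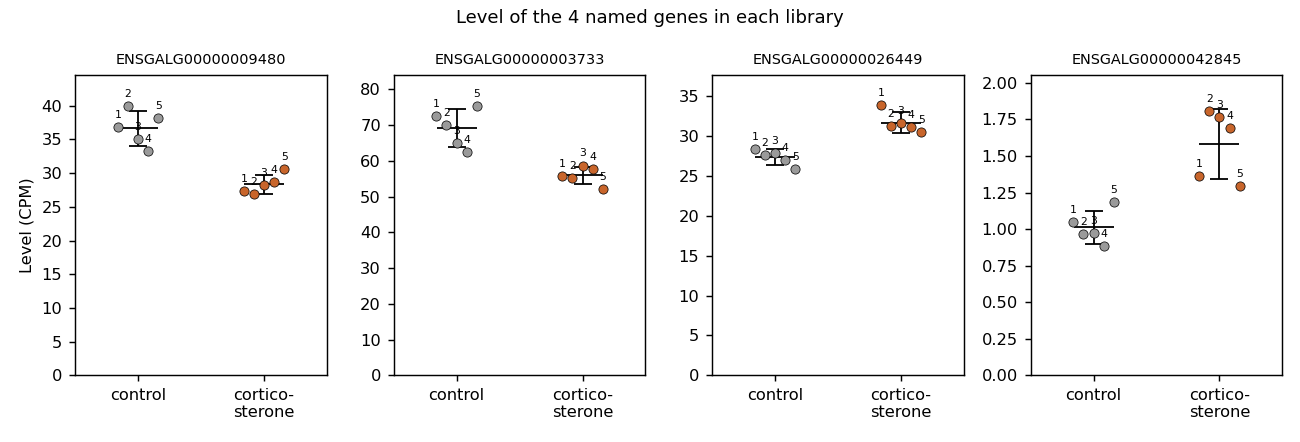
Level of the 4 named identifiers in CPM in each library, with the replicate number above each point and the mean and SD of 5 pools in black. The first pair was lower and the second pair higher in every corticosterone pool than in any control pool, and none had an edgeR adjusted p under 0.445.

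Over all tested genes, 178 (1.27%) had corticosterone and control values that did not overlap, 96 (0.683%) higher and 82 (0.583%) lower. Random labels on the 10 libraries would separate a gene in this way with a probability of 0.00794. The 178 genes were spread over the abundance range. The share was 1.40% under 1 CPM, 1.01% at 1 to 10 CPM, 1.35% at 10 to 100 CPM and 1.34% at 100 to 1000 CPM. Over 1000 CPM it was 2.38%, from 2 of 84 genes, both lower after corticosterone. With 8 libraries, leaving out corticosterone replicates 1 and 2, 638 of 14225 genes (4.49%) did not overlap, 304 (2.14%) higher and 334 (2.35%) lower. With 3 against 5 pools, random labels would meet that rule with a probability of 0.0179 in each direction. Fewer pools make it easier to meet, so the counts do not measure a stronger shift. Leaving out any 1 library likewise gave more than 178 such genes, from 246 to 531. There were 531 without corticosterone replicate 5, 491 without control replicate 4 and 442 without control replicate 3. Why the counts differed between these omissions was not tested. Without corticosterone replicates 1, 3 and 4 in turn there were 294, 282 and 295. Presence or absence hardly separated the groups. There were 2 genes read in all corticosterone and no control libraries, 2 with the reverse, and the highest mean count among these was 2.8 reads.

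Corticosterone replicates 1 and 2 stood apart from the other 8 libraries. On the first principal component of log2 CPM, with 28.7% of the variance, they scored 23.9 and 32.9, and the others lay between -10.9 and -2.33. The second component, with 19.2%, did not set these libraries apart. It ran from -20.1 in corticosterone replicate 4 to 25.1 in control replicate 1.

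Nearly all the larger upward folds rested on these libraries. Of the genes beyond 2-fold, 54 were fitted higher and 13 lower. Summed over the 54 genes, the level was 739 CPM in corticosterone replicate 1 and 632 CPM in corticosterone replicate 2. It was 102, 86.0 and 110.04 CPM in corticosterone replicates 3, 4 and 5, and between 97.7 and 122 CPM in the controls. Of the 54 genes, 45 had an unadjusted edgeR p under 0.05, against 8.83% of all tested genes. The other corticosterone pools were, in sum, at or near the control level. Genes beyond 2-fold were chosen by their fit in this same contrast, so these values only describe them. Only 1 of the 54 was still beyond 2-fold higher without corticosterone replicates 1 and 2. The 13 genes fitted lower summed to 7.60 to 26.4 CPM in the corticosterone pools and to 23.8 to 77.8 CPM in controls, the highest being control replicate 1.

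Leaving out corticosterone replicates 1 and 2 moved the fitted fold of 125 genes by over 1.5-fold and of 61 by over 2-fold. All 125 were higher with these libraries than without. A fitted group level is close to an arithmetic mean of its pools. High pools can raise such a mean without limit, but low pools can lower it only so far. A downward move over 2-fold was not possible here, so the split in direction was largely set by the measure. The median gene moved by 0.04 log2 units, and 2664 of 14062 genes changed sign. With 8 libraries, 961 genes (6.76%) had an unadjusted p under 0.05, of which 361 (2.54%) were higher and 600 (4.22%) lower. The fits shared 518 such genes, which is 41.7% of the list from 10 libraries and 53.9% of the list from 8, and 517 of these had the same sign. A fold beyond 1.2 was then found for 1518 genes (10.7%), beyond 1.5 for 195 genes (1.37%) and beyond 2 for 27 genes (0.19%). Beyond 1.5-fold there were 135 higher and 44 lower of 14062 genes with all libraries, and 63 higher and 132 lower of 14225 without the pair. Of the 132, 80 were under 1 CPM, a class that grew from 1424 to 1587 genes. At 1 to 10 CPM, with the same 3850 genes in both fits, the direction turned from 61 higher and 14 lower to 8 higher and 42 lower.

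**Figure D3:**
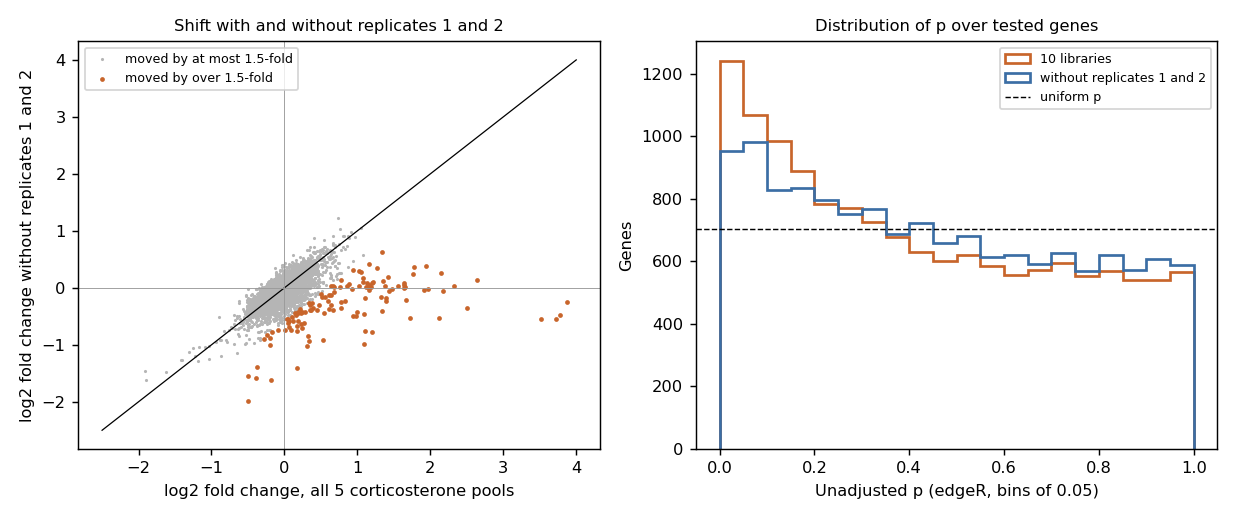
The left panel plots each gene's log2 fold change from all 10 libraries against that without corticosterone replicates 1 and 2, and the 125 genes that moved by over 1.5-fold are in orange, all below the line of equality. Averaging over pools favours large moves to that side. The right panel counts genes by unadjusted edgeR p in bins of 0.05 for both fits over the same 14062 genes, with the even spread dashed. The first bin holds 1241 genes with all libraries and 953 without the pair.

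Fitted shifts were described by abundance class, and no difference between classes was tested. The median log2 fold change was 0.03 under 1 CPM, 0.0092 at 1 to 10 CPM, 0.0094 at 10 to 100 CPM and -0.0088 at 100 to 1000 CPM. The SD of library medians within groups was 0.032, 0.025, 0.0078 and 0.021 log2 units in these classes and 0.093 over 1000 CPM. Among the 84 genes over 1000 CPM the median log2 fold change was -0.11, with 73 genes fitted lower, 11 higher and 0 beyond 1.5-fold. An unadjusted p under 0.05 was reached by 12.1% of the 2091 genes at 100 to 1000 CPM, 60 higher and 192 lower. Over 1000 CPM it was reached by 14.3%, 0 higher and 12 lower, against 8.83% of all tested genes. Without corticosterone replicates 1 and 2 these classes had 40 higher and 100 lower (6.70%) and 0 higher and 4 lower (4.76%). The share over all genes was then 6.76%. Under 1 CPM there were 67 higher and 32 lower of 1424 genes (6.95%) with all 10 libraries. Without corticosterone replicates 1 and 2 there were 37 higher and 44 lower of 1587 (5.10%), as the filter then kept more scarce genes. Without that pair of libraries all class medians were negative, at -0.0075, -0.022, -0.0020, -0.0084 and -0.047 in order of abundance. With total-count scaling the medians of the 4 classes up to 1000 CPM all became positive, at 0.078, 0.058, 0.057 and 0.038.

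The shift of the most abundant genes was not shared by all pools. Their median log2 difference from the control mean was -0.16, -0.26, -0.05, -0.17 and 0.06 in corticosterone replicates 1 to 5. It was 0.06, 0.02, -0.01, -0.06 and 0.02 in control replicates 1 to 5. The groups overlapped, with corticosterone replicate 5 next to the highest control. With total-count scaling the median was -0.07 and 60 of 84 genes were lower, with 1 surrogate variable it was -0.07 with 61 lower, and without corticosterone replicates 1 and 2 the median was -0.05 and 57 were lower.

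The share of all counts held by a given set of genes does not depend on the scaling of libraries, although scaled levels set the classes. The shares of a library add up to the whole. A lower share in a class thus raises that of others, and the tests of classes are not independent. Genes over 1000 CPM held 26.8%, 25.6%, 24.3%, 24.4% and 25.5% of the counts in control replicates 1 to 5. They held 23.4%, 22.7%, 24.7%, 23.5% and 26.5% in corticosterone replicates 1 to 5. The means were 24.2% ± 1.50 and 25.3% ± 1.01 (SD, n = 5), a difference of -1.14 percentage points that was not distinguishable from the spread between pools (exact two-sided permutation p = 0.230, adjusted p = 0.322). Corticosterone replicate 5 was the only corticosterone pool above the control mean, and replicate 3 lay within the control range. Leaving out any single library gave differences from -1.73 to -0.769 percentage points (exact unadjusted permutation p from 0.0476 to 0.413). The lowest p came without corticosterone replicate 5, the pool that ran against the difference, and was not taken as support. Without corticosterone replicates 1 and 2 the corticosterone mean was 24.9% ± 1.51 (n = 3, exact permutation p = 0.750).

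Genes at 10 to 100 CPM held 27.0% ± 0.870 of the counts in corticosterone pools against 26.2% ± 0.411 in control pools (SD, 5 pools each; exact permutation p = 0.111, adjusted p = 0.322). The difference of 0.808 percentage points became 0.537 to 1.11 when any single library was left out (exact unadjusted permutation p from 0.0238 to 0.214). It was largest without replicate 5, the corticosterone pool with the lowest share, so the lowest p was not taken as support. Genes at 1 to 10 CPM held 1.68% ± 0.0963 and 1.61% ± 0.0207 (exact permutation p = 0.206, adjusted p = 0.322). Single omissions gave an exact unadjusted permutation p from 0.0397, without corticosterone replicate 5, to 0.357. For genes under 1 CPM the exact permutation p was 0.198, and at 100 to 1000 CPM it was 0.524. The shares at 1 to 10 CPM were 1.75% and 1.80% in corticosterone replicates 1 and 2 and between 1.58% and 1.64% in the other 8 libraries. Detected genes, not matched for total count, numbered 18087 ± 197 per corticosterone pool against 18003.8 ± 154 per control pool (SD, exact permutation p = 0.460, adjusted p = 0.524). These were 7 tests adjusted together, counting that of the distances between pools, and the smallest p that 5 against 5 libraries can give is 0.00794.

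**Figure D4:**
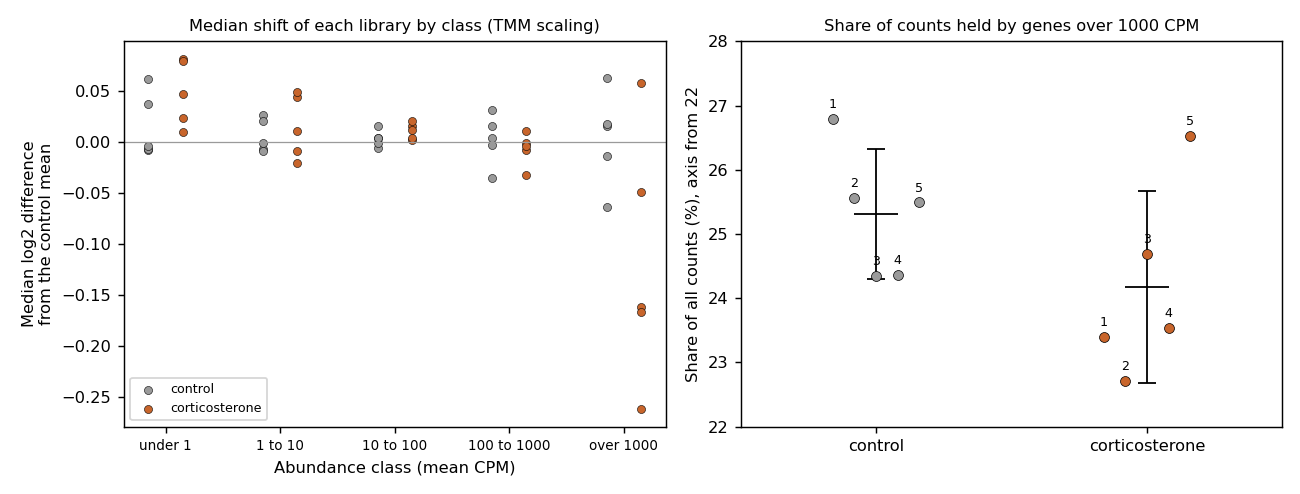
The left panel gives, for each library and abundance class, the median log2 difference of its genes from the control mean after TMM scaling. The right panel gives the share of all counts (%, axis from 22) held by the 84 genes over 1000 CPM, with replicate numbers and the mean and SD of 5 pools. Corticosterone replicate 5 lies among the controls in both, at 0.06 for genes over 1000 CPM and at 26.5%.

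The estimated spread among pools was larger after corticosterone than in controls, although the test over pools given below did not pass 0.05. The biological coefficient of variation, the spread of a gene's true level among pools after counting noise, was 12.2% after corticosterone and 9.33% in controls. It stayed between 11.5% and 12.7% when any 1 corticosterone pool was left out. Without replicates 1 and 2 together it was 9.47% over 3 pools. These were left out because they stood apart, and taking out extreme pools lowers a spread by itself.

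The root mean square log2 distance of each pool from the mean of the other pools of its group, over 8788 genes of at least 10 CPM, was 0.164, 0.220, 0.159, 0.184 and 0.188 in corticosterone replicates 1 to 5. In control replicates 1 to 5 it was 0.182, 0.107, 0.178, 0.161 and 0.127. The values overlapped, and the means of 0.183 ± 0.024 and 0.151 ± 0.033 (SD, n = 5) gave an exact two-sided permutation p of 0.119 (adjusted p = 0.322). Distances within a group share their reference pools and are not fully independent. Leaving out any single library gave an unadjusted permutation p from 0.0476 to 0.508. The lowest came without control replicate 1, the control pool with the largest distance. Without corticosterone replicates 1 and 2 the means were 0.170 and 0.150 (unadjusted permutation p = 0.411). A pool of a smaller group is set against the mean of fewer others, which enlarges its distance by itself. With groups of unequal size the distances are thus not on equal terms and the permutation p is not exact.

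Gene by gene, the SD of log2 CPM was larger among corticosterone pools for 7722 of 14062 genes (54.9%). The share was larger in the more abundant classes, going from 51.5% under 1 CPM and 51.9% at 1 to 10 CPM to 55.3% at 10 to 100 CPM, 60.4% at 100 to 1000 CPM and 79.8% over 1000 CPM. For the class over 1000 CPM the median SD was 0.18 log2 units among corticosterone pools and 0.09 among controls. The root mean square SD in this class was 0.191 among all 5 corticosterone pools and 0.132 among controls. Without corticosterone replicates 1 and 2 it was 0.172. At 100 to 1000 CPM the corticosterone value went from 0.141 to 0.125 without them, against 0.114 in controls. It went from 0.171 to 0.144 at 10 to 100 CPM, against 0.144 in controls. At 1 to 10 CPM it went from 0.318 to 0.254, against 0.268, and under 1 CPM from 0.436 to 0.394, against 0.422. Of the 8788 genes of at least 10 CPM, 82 had an SD over 0.5 among corticosterone pools and 40 among controls. Among the 82, corticosterone replicates 1 and 2 were the highest pair for 37 and the lowest pair for 24. The 82 genes were chosen by their SD among these same pools, and the place of the pair over all 8788 genes was not counted. The values only describe the 82, among which the pair lay at either end. Corticosterone replicate 2 had 20 genes at least 2-fold above and 24 at least 2-fold below the mean of the other corticosterone pools. Corticosterone replicate 1 had 12 and 2, replicate 3 had 3 and 11, replicate 4 had 6 and 12 and replicate 5 had 6 and 4. Replicates 1 and 2 are part of each other's reference mean and of that of the other corticosterone pools. The counts are thus not properties of each pool alone. The control pools had 0 to 4 above and 0 to 11 below.

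**Figure D5:**
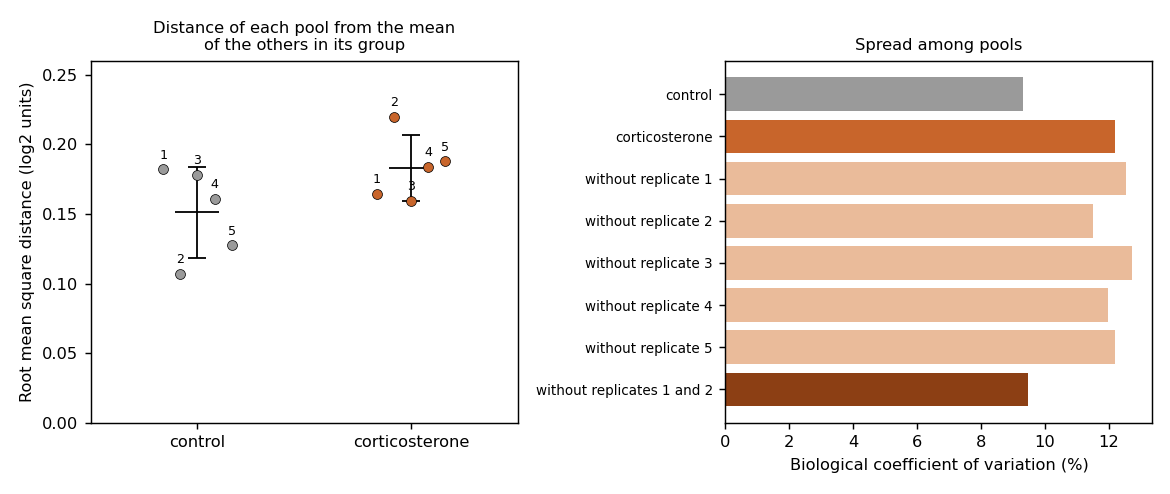
The left panel gives the root mean square log2 distance of each pool from the mean of the others in its group, with replicate numbers and the mean and SD of 5 pools. The right panel gives the biological coefficient of variation (%) of the control pools, the corticosterone pools, and the corticosterone pools with libraries left out. Corticosterone falls from 12.2% to 9.47%, next to the 9.33% of controls, where replicates 1 and 2 are left out together. These were chosen because they stood apart.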

How the data were processed

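The deposited values are raw counts of reads per gene, in 1 table whose 15 columns each matched a sample by its label. The submitters' processing notes list TopHat2 2.0.14 and HTSeq 0.6.1p1 but no settings. Libraries were strand-specific (Illumina TruSeq), per the labels' protocols. Build, annotation and the strand setting of counting: not given in the sources used here. Overlapping, antisense or near-identical genes may therefore hold each other's reads.

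The counts of the 10 libraries were filtered with filterByExpr by group, scaled by TMM and tested in edgeR 4.0.16 under R 4.3.3 (robust quasi-likelihood, 1 mean per group, 8 residual degrees of freedom), with Benjamini-Hochberg adjustment over all tested genes. The code was tested on simulated data. Standard errors and intervals come from edgeR's F statistic and can be too narrow for genes with few reads. Principal components and distances used log2 CPM with a prior count of 2. Abundance classes used mean CPM over the 10 libraries. Measures with 1 value per library went through exact permutation tests, two-sided. For distances in groups of unequal size these tests are only approximate.

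The named identifiers are those with the smallest p in each direction at a mean of at least 1 CPM. Gene lists written for matched names could not be applied. The comparison, the lists and the attention to corticosterone replicates 1 and 2 were chosen with earlier results of these data known, and the shares of counts were added after the data were seen. No batch is given in the labels. A chi-square test of library pairs gave 5.54 to 48.8 per degree of freedom over 45 pairs, where sampling noise gives about 1, so no pair was merged. Alternatives were RLE, upper-quartile and total-count scaling, 2 other filters, non-robust estimation and a fit of all 15 libraries. Others were limma 3.58.1 voom with a quality weight for each library, DESeq2 1.42.0, 1 surrogate variable (sva 3.50.0) and a replicate block. The rest were leaving out libraries and a threshold of 0.1.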

Additional observations from a re-analysis of the deposited data

How the results depend on the processing

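The count of 0 genes past the adjusted threshold held under 22 alternatives and became 11 with DESeq2. Leaving out 1 library gave 795 to 1898 genes at an unadjusted p under 0.05, 327 to 835 of them higher and 458 to 1063 lower, and 246 to 531 genes without overlap. With total-count scaling 1178 genes were higher and 382 lower, and the medians of the log2 fold change were 0.078, 0.058, 0.057 and 0.038 in the 4 classes up to 1000 CPM, with the class over 1000 CPM at -0.07. Under 1 CPM the median was -0.012 with no low-count filter and -0.0016 with the stricter one. At 10 to 100 CPM it was 0.0015 in the fit of all 15 libraries. With 1 surrogate variable it was -0.0078 at 1 to 10 CPM and -0.068 over 1000 CPM, with 61 genes lower there. Without corticosterone replicates 1 and 2 there were 361 higher genes and 638 without overlap. The medians were then -0.0075 under 1 CPM, -0.022 at 1 to 10 CPM and -0.0020 at 10 to 100 CPM, and the coefficient of variation was 9.47%. The cause of these moves was not tested, beyond the fewer libraries that make an absence of overlap easier.

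Leaving out 1 library moved the coefficient of variation to 8.49% to 10.2% in controls and 11.5% to 12.7% after corticosterone. The class medians then ran from 0.01 to 0.04 under 1 CPM, from -0.0022 to 0.02 at 1 to 10 CPM, from 0.00052 to 0.01 at 10 to 100 CPM, from -0.02 to -0.0011 at 100 to 1000 CPM and from -0.16 to -0.08 over 1000 CPM, where 64 to 73 genes were lower. The difference in distance between groups ran from 0.012 to 0.045, with groups of unequal size that put the distances on unequal terms. Over genes of at least 1 CPM it was 0.040 with all 10 libraries (exact unadjusted permutation p = 0.0476). Over genes of at least 100 CPM it was 0.034 (exact unadjusted permutation p = 0.135). The difference in share of counts ran from 0.038 to 0.0932 percentage points at 1 to 10 CPM, 0.537 to 1.11 at 10 to 100 CPM and -1.73 to -0.769 over 1000 CPM. The 4 named genes kept their direction in all alternatives, and DESeq2 alone called the first pair of them. They were chosen for their p in these libraries and their groups did not overlap. Leaving out libraries could thus hardly have changed their direction.

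In the fit with a replicate block 0 genes passed and 1419 had an unadjusted p under 0.05. Same-numbered pools correlated between -0.237 and 0.289 in their deviations from the group means, 2 of 5 pairs over 0.1, and 1 of 10 libraries correlated best with its own number, so the numbers were not taken to pair the pools. Depth limits genes under 1 CPM most. The intervals cover the spread between these pools only.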
